A study of Arabidopsis thaliana with 10 samples.

Results

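Of the 33602 genes counted in whole Arabidopsis thaliana seedlings, 11 had transcripts at an appreciable level in the dal-2 mutant and almost none in any other group. They were chosen on the counts themselves. A gene entered when its CPM (its count scaled by the library total) averaged below 0.5 in each of the 4 other groups and reached 3 in both dal-2 libraries. Of 13 genes that met both limits, AT1G30170 and AT5G53240 were left out by name. The same limits with another group as the high one gave 35 genes for the DIF-OX2 line on Dex and 0 genes for each of the other 3.

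The 10 libraries form 5 groups of 2, all in the Col-0 ecotype background. They are wild-type Col-0 and the line DIF-OX2, each without Dex or on 10 µM dexamethasone (Dex, a synthetic glucocorticoid), and the mutant dal-2 without Dex. DIF-OX2 is called induced on Dex and uninduced without it. The medium held 1% sucrose, days were long, and control medium held 0.1% ethanol, the solvent of Dex. Harvest was by stage, at 4 open true leaves. Col-0 and DIF-OX2 reached it at 12 days of age, dal-2 replicate 1 at 20 days and dal-2 replicate 2 at 21 days, so genotype and age cannot be told apart in dal-2. The labels used here do not give the promoter of the DIF-OX2 transgene, the nature of the dal-2 allele or whether replicates came from separate cultures, so p-values measure only the spread between these libraries, which may be technical.

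The 11 genes encode unrelated products. Annotated among them are a mannose-binding lectin, an F-box protein, a receptor-like protein, a DNA helicase, a histone acetyltransferase, a homeodomain transcription factor, an ABC transporter and a mitochondrial oxidase, together with a ribosomal RNA gene and 2 pseudogenes. DAL, the gene named in the title of the series, belongs to a small family of organelle RNA editing factors known as MORF proteins. Plastids and mitochondria that fail to mature are known to change the expression of nuclear genes, a response called retrograde signalling. Alternative oxidase genes are well-known nuclear targets of the mitochondrial branch of that response.

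Library totals ran from 8805568 to 16556322 counts. The DAL transcript had 38.3 and 43.2 CPM in dal-2 and between 66.1 and 102 CPM in the other 8 libraries, so it was lower in dal-2 but not absent. The dal-2 replicates differed more than those of any other group, with a standard deviation (SD) of log2 differences over genes of 0.745 against 0.355 to 0.439. The leaf photosynthesis markers, 10 of 10 of them lower in dal-2, summed to 3418 CPM in dal-2 replicate 1 and 11635 CPM in replicate 2. The sums were 59311 to 67376 CPM in the 6 libraries of Col-0 and of uninduced DIF-OX2. Induced DIF-OX2 had 34047 and 24448 CPM, with 6 of the 10 lower than in Col-0 on Dex. In whole seedlings, fewer cells of a type and less RNA per cell cannot be told apart.

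Taken over all 11 genes, 46 of the 88 values outside dal-2 were 0 counts, and the highest was 0.568 CPM. In dal-2 the values ran from 3.16 to 25.8 CPM. These levels are what chose the genes, so differences between dal-2 and the other groups are described here without a test. Where a group of 2 libraries had no count at all, the fold is a lower bound that assumes 3 counts over the group. Where it had 1 to 3 counts, the ratio is given with an exact 95% interval that covers counting error only.

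**Figure D1:**
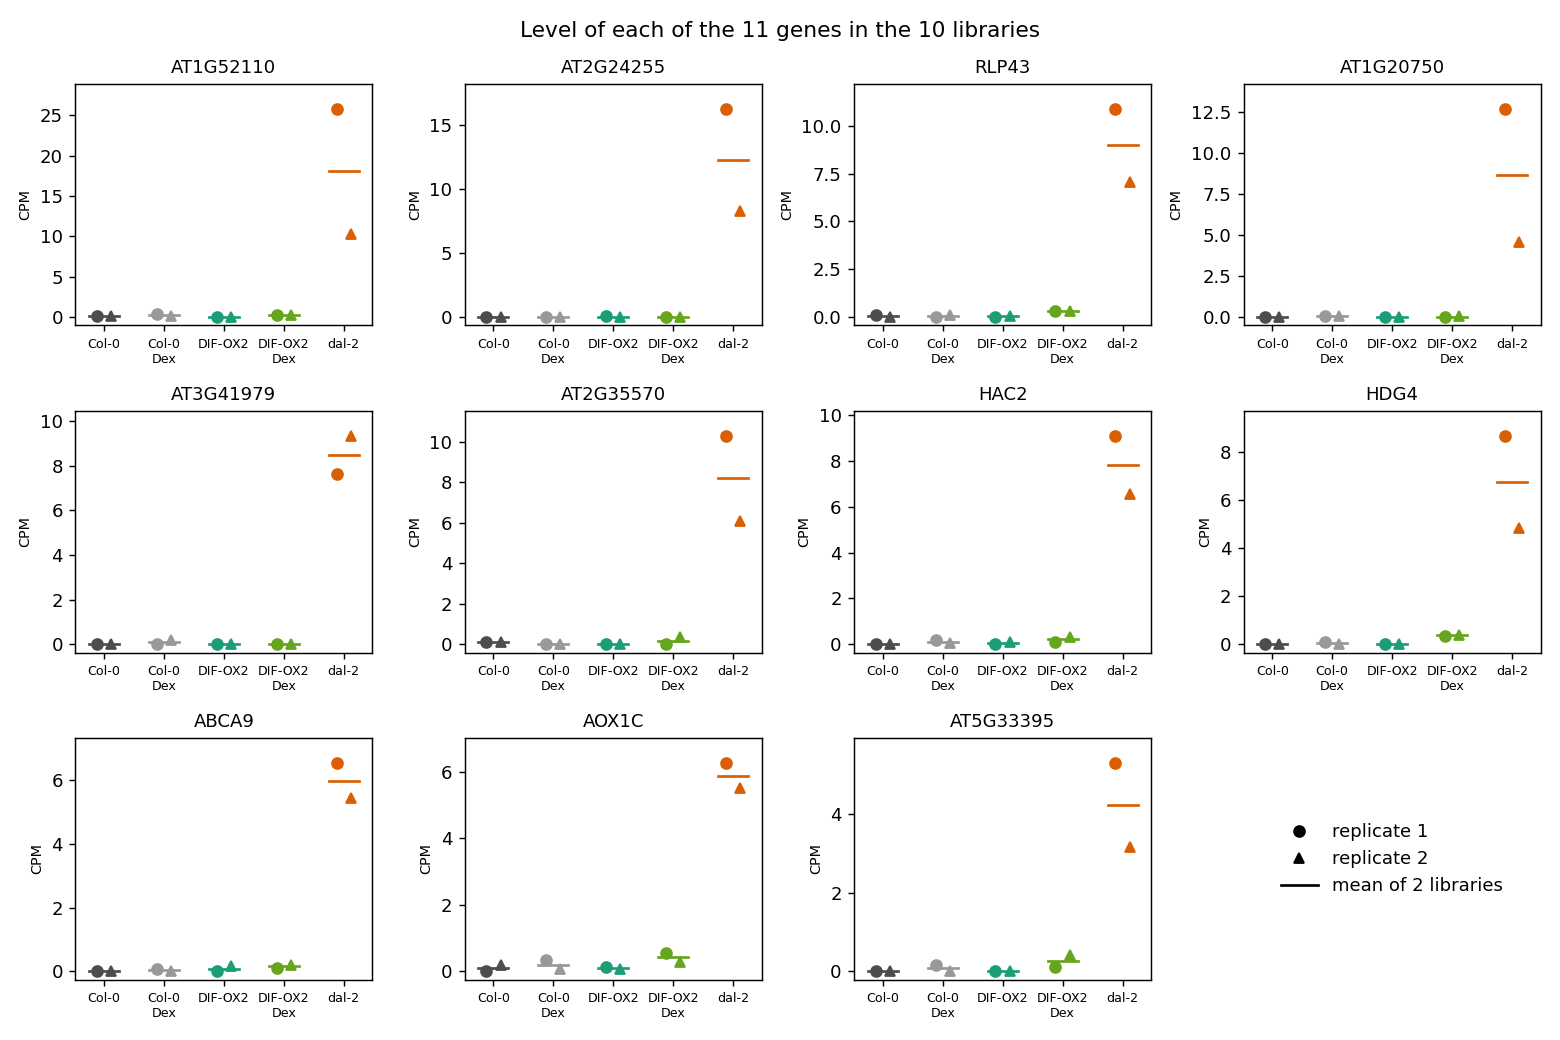
Level of each of the 11 genes in each of the 10 libraries, in CPM on a linear axis that differs between panels. Circles are replicate 1, triangles replicate 2, and bars the mean of 2 libraries. Every value outside dal-2 lies at or below 0.568 CPM, and every dal-2 value lies at or above 3.16 CPM.

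AOX1C (AT3G27620, chr3:10229045-10230707 on the minus strand, 4 exons) encodes an alternative oxidase, an inner mitochondrial membrane enzyme that passes electrons from ubiquinol straight to oxygen. It had 6.27 and 5.51 CPM in dal-2, a mean of 5.89 ± 0.543 (SD, n = 2). Elsewhere it had 0 and 0.191 CPM in Col-0, 0.351 and 0.0604 in Col-0 on Dex, while uninduced DIF-OX2 had 0.143 and 0.0785 and induced DIF-OX2 had 0.568 and 0.271. With 2 counts in Col-0, its ratio of dal-2 to Col-0 was 59.1 (16.1 to 492). Of the 11 genes it was the one nearest to the upper limit outside dal-2, with a mean of 0.419 CPM in DIF-OX2 on Dex, and a count was missing in only 1 of the 8 other libraries.

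The other alternative oxidases did not share this pattern. AOX1A, the isoform best known to respond to disturbed mitochondria, was expressed in every group and rose from 31.5 CPM in Col-0 to 87.2 and 67.8 CPM in dal-2 (log2 fold change 0.82 ± 0.13 SE, adjusted p = 0.00299, edgeR quasi-likelihood test). The comparison of both lines on Dex gave a rise of 0.87 on the log2 scale (adjusted p = 0.00369). AOX1D had no count in Col-0 and 1.15 and 0.336 CPM in dal-2, at least 4.63-fold higher (adjusted p = 0.0227 by the same test), a call lost without either Col-0 replicate (0.0785 and 0.083). Its level was greatest in DIF-OX2 on Dex, at 4.54 and 6.91 CPM. AOX1B, whose protein matched that of AOX1C at 90.2% of 296 aligned residues, had at most 0.0671 CPM in dal-2 and was not tested. AOX1C shared no 50-base stretch with any other annotated transcript.

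Among 10 genes known to respond to mitochondrial dysfunction, a list that holds AOX1A and AOX1D but not AOX1C, 7 rose in dal-2 and 0 fell. Across all 20681 tested genes 15.9% were called higher and 18.0% lower in dal-2, a total of 33.9%. With upper quartile scaling, which moves the median of all genes from 0.03 to 0.16 on the log2 scale, the split was 4564 higher and 3140 lower instead of 3280 and 3731. DTX3, a MATE-type transporter, went from 0.307 and 0.478 CPM in Col-0 to 35.8 and 34.2 CPM in dal-2 (log2 fold change 5.96 ± 0.29 SE, edgeR adjusted p = 5.44e-05). UPOX, a mitochondrial protein raised by oxidative stress, rose by 4.99 ± 0.34 on the log2 scale (adjusted p = 0.000119, same test). In the comparison of DIF-OX2 on Dex with Col-0 on Dex, 8 of the 10 rose, against 11.6% of all tested genes. Of the 8, AOX1D and AT12CYS-2 passed the filter on low counts only through DIF-OX2 on Dex and could be called only higher.

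AT1G20750 (chr1:7203302-7209013, minus strand, 25 exons) encodes a RAD3-like DNA-binding helicase, a class that unwinds DNA during repair. Its level was 12.7 and 4.57 CPM in the dal-2 replicates. No count was found in Col-0 or in DIF-OX2 without Dex, and 3 counts in all were found in the other 4 libraries, so that its level in dal-2 was at least 54.6-fold that in Col-0. HAC2 (AT1G67220, chr1:25145587-25150558, plus strand, 9 exons) encodes a CBP-type histone acetyltransferase, an enzyme that adds acetyl groups to histones and is a co-activator of transcription. It had 9.10 and 6.58 CPM in dal-2 and no count in Col-0, at least 51.7-fold higher. HAC2 had 0.176 and 0.0604 CPM in Col-0 on Dex, while uninduced DIF-OX2 had 0 and 0.0785 and induced DIF-OX2 0.114 and 0.339.

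These genes were the only members whose start region held the mitochondrial dysfunction motif, a sequence found upstream of AOX1A and other nuclear genes for mitochondrial proteins. The motif was searched as CTTG, any 5 bases, CA, any base and G, on both strands, from 250 bases before to 50 after each annotated start, in the 10 members other than the ribosomal RNA gene. It occurred in 2 of 10, against 2.14% of 27443 protein-coding genes. Both start regions are shown because they hold it. The 13 bases that match are in capitals, the sequence runs 5′ to 3′ on the strand of the gene, and it comes from RefSeq TAIR10.1.
AT1G20750, chr1:7208964-7209263, minus strand: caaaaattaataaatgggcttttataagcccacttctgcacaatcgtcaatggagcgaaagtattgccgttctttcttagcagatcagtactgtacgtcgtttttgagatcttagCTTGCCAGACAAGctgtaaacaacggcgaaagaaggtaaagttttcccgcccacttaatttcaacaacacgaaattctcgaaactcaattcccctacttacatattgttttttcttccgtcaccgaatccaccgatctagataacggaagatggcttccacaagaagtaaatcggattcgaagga
HAC2, chr1:25145337-25145636, plus strand: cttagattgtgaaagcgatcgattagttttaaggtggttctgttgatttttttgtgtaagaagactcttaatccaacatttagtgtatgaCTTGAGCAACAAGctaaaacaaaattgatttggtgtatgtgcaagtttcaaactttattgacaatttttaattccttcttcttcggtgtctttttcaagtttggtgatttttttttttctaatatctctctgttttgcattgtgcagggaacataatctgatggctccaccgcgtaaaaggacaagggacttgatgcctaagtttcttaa
The match begins 135 bases before the annotated start of AT1G20750 and 160 bases before that of HAC2. The annotation marks the 5′ end of HAC2 as incomplete, so its start may lie further upstream. The same holds for AT1G52110, RLP43, HDG4, ABCA9 and AT5G33395, so the windows searched may miss their true start regions. Motif counts over the 10 members therefore hold for annotated starts only. In AT1G20750 and HAC2 the matched bases also fit the motif on the opposite strand. AT1G20760, a calcium-binding EF-hand gene, starts 284 bases from AT1G20750 in the other direction and so shares the same stretch. Its level was 66.3 CPM in Col-0 and 85.3 CPM in dal-2, which was not called after library scaling (log2 fold change -0.11 ± 0.14 SE, edgeR adjusted p = 0.566). A match is a description of letters, and no binding was measured.

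The other short motifs searched, on both strands of the same windows, were in few or no members or were common in all genes. The W-box core TTGAC occurred in 6 of 10 start regions against 50.5% of all genes, and TATAAA in 5 of 10 against 52.1%. TGACG, which overlaps a W-box core on the opposite strand of AT1G20750, occurred in that gene alone against 23.1%. The L1 box TAAATGNA, known from genes of the outer cell layer, occurred in AT5G33395 alone against 11.3%. The G-box CACGTG was in 0 of the 10 windows, against 7.68% of all genes. The RY core CATGCA, found in 9.72% of all genes, was in 0 of them. So was GCCGCC, at 2.57%, the core bound by ethylene response factors. The evening element AAAATATCT, at 2.82%, was in none of these windows either.

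The nearest relatives of HAC2 and of the helicase were expressed in every group. HAC1, whose protein matched HAC2 at 41.2% of 837 aligned residues, had 97.5 CPM in Col-0 and 133 and 143 CPM in dal-2 (log2 fold change 0.03 ± 0.12 SE, edgeR adjusted p = 0.866). Of the other 4 HAC genes, HAC5 alone was called (log2 fold change 0.33 ± 0.11 SE, edgeR adjusted p = 0.0455), and that call was lost without dal-2 replicate 1 (0.168) or either Col-0 replicate (0.108 and 0.116). AT1G20720, with 68.9% of 1219 aligned residues like AT1G20750, stood at 8.54 CPM in Col-0 and 14.8 and 8.06 CPM in dal-2 (edgeR adjusted p = 0.869). Among 5 tested genes annotated as RAD3-like, of which ATR is a protein kinase and no helicase, 0 were called by edgeR, and 2 were called higher without dal-2 replicate 2 or with upper quartile scaling.

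HDG4 (AT4G17710, chr4:9856255-9859288, minus strand, 10 exons) is a class IV homeodomain-leucine zipper (HD-ZIP IV) transcription factor, a family that sets the identity of epidermal cells and their hairs. It stood at 8.66 and 4.83 CPM in dal-2 and had no count in Col-0 or in DIF-OX2 without Dex. Col-0 on Dex had 0.0878 and 0 CPM, and DIF-OX2 on Dex had 0.341 and 0.406 CPM. Its level in dal-2 was at least 43.8-fold that in Col-0 and between 8.74 and 37.8 times (95% counting interval) that in DIF-OX2 on Dex, where 9 counts were found.

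Most other HD-ZIP IV genes that were called moved the opposite way. Of 10 tested, 5 fell in dal-2 and 2 rose. In induced DIF-OX2 against Col-0 on Dex, 6 of the 10 fell and 0 rose. Among those falls were GL2 (log2 fold change -1.51, edgeR adjusted p = 0.00268), ATML1 (-1.12, 0.00947) and PDF2 (-0.83, 0.0433). GL2, which acts in trichomes and in root hair patterning, went from 17.5 CPM in Col-0 to 3.62 and 5.04 CPM in dal-2 (log2 fold change -2.47 ± 0.22 SE, edgeR adjusted p = 0.000285). HDG5 (AT5G46880), the nearest relative of HDG4 at 55.6% of 786 aligned residues, went from 13.0 to 8.13 and 5.57 CPM (log2 fold change -1.41 ± 0.26 SE, edgeR adjusted p = 0.00524). HDG7 rose from 1.62 to 10.6 and 4.90 CPM (log2 fold change 1.75 ± 0.40 SE, edgeR adjusted p = 0.0127). ATML1 and PDF2, the protodermal factors, were not called in dal-2. Without Col-0 replicate 1 the counts were 0 higher and 2 lower, and without Col-0 replicate 2 they were 1 higher and 3 lower.

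ABCA9 (AT5G61730, chr5:24803427-24807920, minus strand, 16 exons) encodes an ABC transporter of the endoplasmic reticulum known to supply fatty acids for seed oil synthesis. It had 6.54 and 5.44 CPM in dal-2, a mean of 5.99 ± 0.778 (SD, n = 2), and no count in Col-0, at least 39.9-fold higher. The other 3 groups held 7 counts in all, and the highest of these values was 0.203 CPM, in DIF-OX2 on Dex replicate 2. ABCA10 lies beside it in the opposite orientation, the starts of the genes facing each other across 485 bases. ABCA10 had 1.02 and 1.05 CPM in Col-0 and 37.4 and 19.7 CPM in dal-2, a rise (log2 fold change 4.28 ± 0.34 SE, edgeR adjusted p = 0.000185). ABCA10 had 1.14 and 1.02 CPM in induced DIF-OX2, against 1.67 and 1.39 CPM in Col-0 on Dex (edgeR adjusted p = 0.194). ABCA11, whose protein matched ABCA9 at 83.8% of 953 aligned residues, had no count in dal-2. The share of 50-base stretches of ABCA9 found also in ABCA11 was 8.45%.

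Of 8 other ABCA transporters tested, 2 rose and 1 fell, and ABCA10 was one of the rises. ABCA1 rose from 40.1 CPM in Col-0 to 94.0 and 77.1 CPM in dal-2 (log2 fold change 0.62 ± 0.15 SE, edgeR adjusted p = 0.0139), and ABCA6 fell from 0.893 to 0.177 and 0.269 CPM (log2 fold change -2.37 ± 0.47 SE, edgeR adjusted p = 0.00695). The counts were 2 higher and 0 lower without Col-0 replicate 1, 1 higher and 1 lower without Col-0 replicate 2, and 3 higher and 1 lower without dal-2 replicate 2.

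Because ABCA9 is known from seeds, markers of seed maturation were read beside it. Summed over 28 genes, including M17, they stood at 32.1 and 157 CPM in dal-2 replicates 1 and 2 and between 9.99 and 17.3 CPM in the other 8 libraries. Without M17, which the selection names as left out, the sums were 24.3 and 33.8 CPM in dal-2 and 8.52 to 15.6 CPM elsewhere. Most of the sum in Col-0 came from RAB18 and OLEO4, neither of which was called in dal-2. RAB18 had 9.92 and 9.94 CPM in Col-0 and 3.00 and 12.5 CPM in dal-2. OLEO4 had 4.09 and 3.54 CPM in Col-0 and 4.15 and 2.75 CPM in dal-2. M10 (AT2G41280), also named as left out, stayed in these sums, with 0.177 and 0.47 CPM in dal-2. ABCA9 had 6.54 and 5.44 CPM in the same replicates. Only 8 of the 28 were tested, of which 4 rose and 0 fell. Of those 4, CRA1, CRU3 and ABI5 passed the filter on low counts only through their levels in dal-2. They could be called only higher, and M17 is named by the selection, so nothing is read from this count. M17 had no count in Col-0 and 7.78 and 124 CPM in dal-2, at least 496-fold higher (edgeR adjusted p = 0.011). The seed storage protein genes CRA1 and CRU3 had 1.68 and 3.29 CPM and 1.33 and 1.07 CPM in dal-2, at least 17.5-fold and 7.98-fold above a Col-0 group with no count (edgeR adjusted p = 0.0356 and 0.0189). ABI5, a transcription factor of abscisic acid signalling in seeds, rose from 0.102 and 0.191 CPM to 6.45 and 2.15 CPM (log2 fold change 4.27 ± 0.77 SE, edgeR adjusted p = 0.00452). Among the embryo regulators, all too low to test, ABI3 had 0.0884 and 0.47 CPM in dal-2 and FUS3 0.0884 and 0.0671 CPM. LEC1 and LEC2 had no count there. The count of rises was 9 of 13 without dal-2 replicate 1 and 2 without either Col-0 replicate, where CRA1 (0.112 and 0.117) and CRU3 (0.0702 and 0.0726) were not called. The part of seed gene expression in the level of ABCA9 was not tested.

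AT1G52110 (chr1:19386709-19389740, minus strand, 7 exons) encodes a protein of the mannose-binding lectin superfamily, which bind sugars and in part respond to wounding and jasmonate. It had the highest level of the 11 in CPM, 25.8 in dal-2 replicate 1 and 10.3 in replicate 2 (mean 18.1 ± 10.9 SD, n = 2). It was also among the least silent elsewhere, with a count in 7 of the 8 other libraries and 16 counts there in all. The values were 0.102 and 0.191 CPM in Col-0, 0.351 and 0.181 in Col-0 on Dex, while uninduced DIF-OX2 had 0.0713 and 0 and induced DIF-OX2 0.227 and 0.203. With 3 counts in Col-0, the ratio of dal-2 to Col-0 was 115 (39.0 to 559).

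AT1G52110 lies in a row of lectin genes, and its direct neighbours on the same strand moved in opposite directions. AT1G52100, 1106 bases away, rose from 17.2 ± 0.889 CPM in Col-0 (SD, n = 2) to 84.5 and 160 CPM in dal-2 (log2 fold change 2.38 ± 0.30 SE, edgeR adjusted p = 0.000946). On Dex its level in DIF-OX2 rose as well, to 39.7 and 38.3 CPM (log2 fold change 1.21, edgeR adjusted p = 0.0203). AT1G52120, 6340 bases away, had 1.02 and 3.82 CPM in Col-0 and no count in dal-2, at least 21.6-fold lower (edgeR adjusted p = 0.00471). The nearest relative by protein, AT5G49870 at 71.0% of 576 aligned residues, fell from 1.39 to 0.707 and 0.134 CPM (edgeR adjusted p = 0.0257), but was not called without dal-2 replicate 2 (0.0707) or either Col-0 replicate (0.147 and 0.0562).

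In the lectin superfamily as a whole, 6 of 21 tested genes rose and 4 fell. AT1G60110 rose from 1.63 CPM in Col-0 to 17.5 ± 0.0903 CPM (SD) in dal-2 (log2 fold change 2.95 ± 0.22 SE, edgeR adjusted p = 0.000162). JAL34, an abundant member, rose from 249 to 1029 and 1044 CPM (log2 fold change 1.58 ± 0.15 SE, edgeR adjusted p = 0.000295). JR1, named for its response to jasmonate, rose by 0.64 ± 0.15 on the log2 scale (edgeR adjusted p = 0.0134). The number of rises was 4 without either Col-0 replicate, and the number of falls was 7 without dal-2 replicate 2.

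RLP43 (AT3G28890, chr3:10895977-10898900, minus strand, 2 exons) encodes a receptor-like protein, a cell-surface protein with leucine-rich repeats and no kinase domain of its own. Several of its relatives detect molecules from microbes. It had 10.9 and 7.05 CPM in dal-2 and 0.102 and 0 CPM in Col-0, where 1 count gave a ratio of 176 (31.3 to 6986). Induced DIF-OX2 had 0.341 and 0.339 CPM. A small share of its 50-base stretches, 3.50%, occurs also in other genes, among them its nearest relative RLP34, which had 5.00 CPM in Col-0 and 11.6 and 10.7 CPM in dal-2 (edgeR adjusted p = 0.0506).

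Many relatives of RLP43 were higher in dal-2. Of 42 tested receptor-like protein genes 20 rose and 4 fell, with a median log2 fold change of 0.86 against 0.03 for all genes. RLP21 had no count in Col-0 and 4.59 and 13.1 CPM in dal-2, at least 63.6-fold higher (edgeR adjusted p = 0.00231). In induced DIF-OX2 against Col-0 on Dex, 10 of the 42 rose and 3 fell. RLP21 was among those rises (edgeR adjusted p = 0.0203). RLP33 rose from 0.409 and 0.0956 CPM in Col-0 to 8.39 and 5.37 CPM in dal-2 (log2 fold change 4.26 ± 0.47 SE, edgeR adjusted p = 0.000607). RLP23, an immune receptor for peptides of secreted microbial proteins, rose in dal-2 by 2.61 ± 0.62 on the log2 scale (edgeR adjusted p = 0.0145). It had 3.27 and 1.21 CPM there, but 19.3 and 21.5 CPM in induced DIF-OX2 (log2 fold change 4.78 ± 0.44 SE, edgeR adjusted p = 0.000423). RLP55 had no count in dal-2, at least 8.20-fold lower than in Col-0 (edgeR adjusted p = 0.00554). The counts were 12 higher and 2 lower without Col-0 replicate 1 and 10 higher and 2 lower without Col-0 replicate 2.

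AT2G24255 (chr2:10315515-10317353, minus strand, 3 exons) is annotated as an F-box/kelch protein of a family with the domain DUF295, and F-box proteins choose the targets of ubiquitin ligases. It was the most cleanly silent of the 11, with 1 count over the other 8 libraries, in DIF-OX2 replicate 1. In dal-2 it had 16.3 and 8.26 CPM, a mean of 12.3 ± 5.72 (SD, n = 2), at least 79.3-fold above Col-0. Its neighbour AT2G24250, of the same family and 529 bases away, had 2.70 CPM in Col-0 and 6.19 and 5.64 CPM in dal-2 (edgeR adjusted p = 0.156). AT1G64840, the nearest relative by protein at 40.6% of 342 aligned residues, had 11.4 CPM in Col-0 and 18.6 and 19.0 CPM in dal-2 (edgeR adjusted p = 0.257). In the DUF295 family 8 of 17 other tested genes rose and 1 fell. Those that rose included AT1G11482 and AT5G54560, as well as AT1G30170, AT5G53230 and AT5G53240, which the selection named as left out. All of these passed the filter on low counts only through dal-2 and could be called only higher. The count is therefore no independent measure. Without Col-0 replicate 2 the count of rises was 5.

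The last 3 members make no protein. AT2G35570 (chr2:14931139-14933175, minus strand) is a transcribed pseudogene related to serpins, which are protease inhibitors. It had 10.3 and 6.11 CPM in dal-2, 0.102 and 0.0956 CPM in Col-0, and 0 and 0.339 CPM in DIF-OX2 on Dex. A share of 11.1% of its 50-base stretches occurs in AT2G35580 or AT2G35590. The former had no count in any library, and the latter had 0.353 and 0.269 CPM in dal-2 and none in Col-0. On the same strand it overlaps AT2G35555 over 366 bases, a gene that the deposited counts do not include. Reads from the shared bases may therefore belong to either gene. Of 4 other tested serpin genes 1 rose, SERPIN1 (log2 fold change 1.19 ± 0.28 SE, edgeR adjusted p = 0.0148), and 1 fell, CCP3 (log2 fold change -1.41 ± 0.30 SE, edgeR adjusted p = 0.00912). SERPIN1 was not called without Col-0 replicate 1 or replicate 2, and CCP3 was not called without Col-0 replicate 1.

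AT5G33395 (chr5:12664506-12666192, plus strand) is a pseudogene with no described function and had the lowest level of the 11, 5.30 and 3.16 CPM in dal-2. It had no count in Col-0, at least 27.5-fold lower, and 0.114 and 0.406 CPM in DIF-OX2 on Dex. Its neighbour AT5G33390, on the same strand 1009 bases away, was too low to be tested but had 1.15 and 0.671 CPM in dal-2, no count in 7 of the other 8 libraries and 0.0677 CPM in DIF-OX2 on Dex replicate 2. The transcript most like it, AT3G31314 at 83.2% of 1504 aligned bases, had no count in Col-0 or dal-2.

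AT3G41979 (chr3:14199753-14199916, plus strand) is a 5.8S ribosomal RNA gene of 164 bases, part of the RNA of the large ribosomal subunit. It had 7.60 and 9.33 CPM in dal-2 and no count in 7 of the 8 other libraries. The sequence is shown because it is the same, base for base, as that of AT2G01020 on chromosome 2 (RefSeq TAIR10.1, 5′ to 3′), so no read that lies within the gene can be assigned to either copy by its sequence.
AT3G41979: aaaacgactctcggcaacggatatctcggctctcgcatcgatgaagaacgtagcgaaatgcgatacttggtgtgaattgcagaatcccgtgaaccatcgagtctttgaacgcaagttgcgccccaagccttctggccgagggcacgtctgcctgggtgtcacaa
AT2G01020 was counted in every group, at 8.14 ± 0.24 CPM in Col-0 (SD, n = 2) and 16.9 and 13.6 CPM in dal-2 (log2 fold change 0.42 ± 0.17 SE, edgeR adjusted p = 0.0911). The neighbouring 18S gene AT3G41768 had 534 and 1080 CPM in Col-0 and 439 and 773 CPM in dal-2 (edgeR adjusted p = 0.107). How multiply aligned reads were counted is not stated, so the counts of AT3G41979 are uncertain.

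Per length of transcript the order of the members changed. In RPKM (CPM per kilobase of exon), the mean level in dal-2 was highest for the short AT3G41979 at 51.6, followed by AT1G52110 at 9.37 and AT2G24255 at 8.14. AOX1C and AT2G35570 had 4.38 and 4.04 RPKM, RLP43 3.48 and HDG4 3.06. AT1G20750 and AT5G33395 both had 2.51, ABCA9 1.98 and HAC2, with the longest transcript, 1.86. Below AT3G41979, neighbours in this order differed by less than the SD of the more variable of the pair.

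The members did not have the same level in both dal-2 replicates. In 10 of the 11 the level was higher in replicate 1, the library of 20-day plants, and in 8 of the 11 the 95% counting interval of the ratio of replicate 1 to replicate 2 excluded 1. The ratio was greatest for AT1G20750 at 2.79 (2.07 to 3.78) and AT1G52110 at 2.50 (2.05 to 3.05), followed by AT2G24255 at 1.98 and HDG4 at 1.79. It was smallest for AT3G41979 at 0.814 (0.615 to 1.07), AOX1C at 1.14 (0.817 to 1.59), ABCA9 at 1.20 (0.865 to 1.67) and HAC2 at 1.38 (1.04 to 1.84). Across the 16978 genes at 3 CPM or more in both libraries the median ratio was 1.06 and 57.7% were higher in replicate 1. A ratio above 1.5 was found in 7 of the 11 members and in 13.7% of those genes. The photosynthesis markers were lower in replicate 1 than in replicate 2, and the part of that difference in the ratios was not tested.

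**Figure D2:**
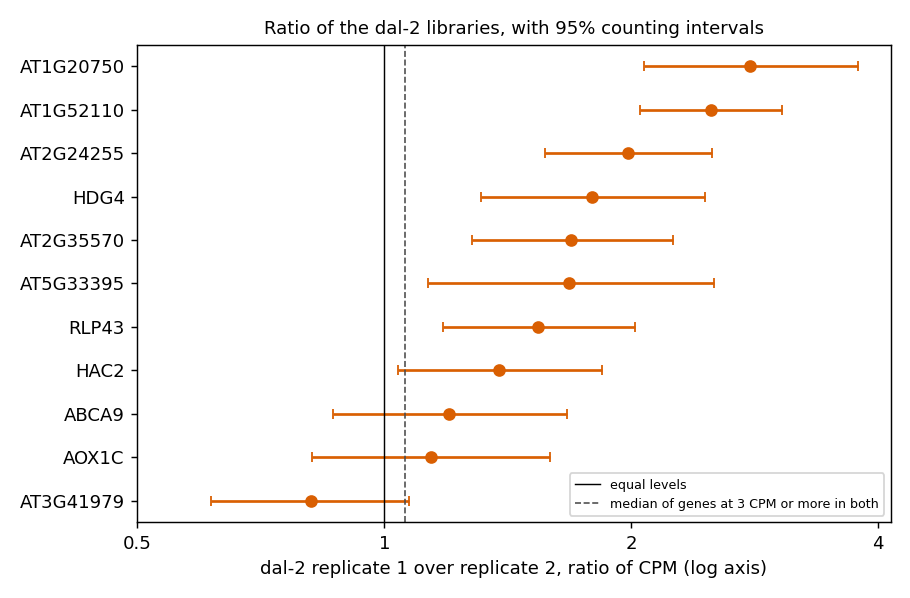
Ratio of CPM in dal-2 replicate 1 to replicate 2 for each of the 11 genes, on a log axis, with exact 95% counting intervals. The solid line marks equal levels and the dashed line the median of 1.06 over genes at 3 CPM or more in both libraries. AT3G41979 alone lies below 1.

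Outside dal-2, the few counts that remained were unevenly spread. Summed over the 11 genes, the libraries of DIF-OX2 on Dex held 16 and 38 counts, or 1.82 and 2.57 CPM, with a count in 7 and 9 of the genes. Col-0 on Dex held 15 and 11 counts (1.32 and 0.664 CPM). Without Dex, Col-0 held 3 and 5 counts (0.307 and 0.478 CPM) and DIF-OX2 4 and 5 counts (0.285 and 0.392 CPM). Both libraries of DIF-OX2 on Dex lay above the other 6. In Col-0 on Dex replicate 2, 3 of the counts were of the uncertain AT3G41979, and without them its sum was 0.483 CPM, next to 0.478 CPM in Col-0 replicate 2.

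**Figure D3:**
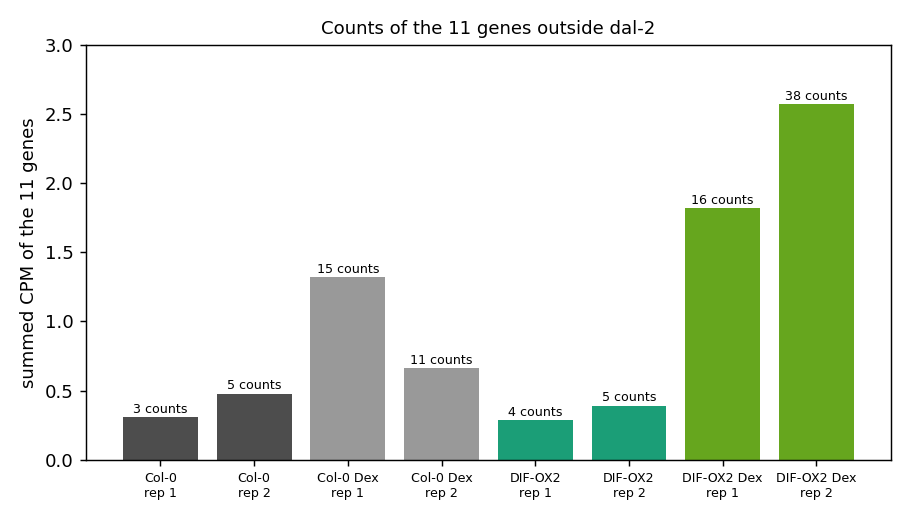
Summed CPM of the 11 genes in the 8 libraries outside dal-2, with the number of counts above each bar. Bars start at 0. The libraries of DIF-OX2 on Dex reach 1.82 and 2.57 CPM, the others 0.285 to 1.32 CPM, against 120 and 71.2 CPM in the dal-2 libraries, which are not drawn.

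Between the groups on Dex the members have values but no test that says more. The selection holds each gene below 0.5 CPM in both groups, and all 11 passed the filter on low counts only through their levels in dal-2. With the 4 libraries on Dex alone, 0 of the 11 could be tested. The number of calls was therefore limited by the selection, and nothing is read from it. In the fit over all libraries, edgeR called 0 of the 11 in DIF-OX2 on Dex against Col-0 on Dex, with 1 at an unadjusted p under 0.05, and the DESeq2 Wald test called 0, also with 1. Across all tested genes 22.0% were called in that comparison, 11.6% higher and 10.4% lower. HDG4 had 3 and 6 counts in induced DIF-OX2 and 1 and 0 counts in Col-0 on Dex. RLP43 had 3 and 5 counts against 0 and 2. AT2G24255 had no count in either group.

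The chromosome neighbours of the members were not used to choose them and could be tested in dal-2. Of 22 direct neighbours, 14 were tested and 5 had no count in any library. Among the 14, 5 rose and 3 fell, with a median log2 fold change of 0.75 against 0.03 for all genes, of which 15.9% were higher and 18.0% lower. Besides ABCA10 and AT1G52100, the rises were in both neighbours of AOX1C and in LRL1. AT3G27630, an inhibitor of cyclin-dependent kinases that lies 184 bases from AOX1C, rose from 0.716 and 0.382 CPM in Col-0 to 9.37 and 3.83 CPM in dal-2 (log2 fold change 3.08 ± 0.53 SE, edgeR adjusted p = 0.00361). AT3G27610, on its other side, rose from 12.0 to 32.5 and 28.1 CPM (log2 fold change 0.86 ± 0.13 SE, edgeR adjusted p = 0.00202). LRL1, a bHLH factor of root hair growth beside AT2G24255, rose by 1.21 ± 0.33 on the log2 scale (edgeR adjusted p = 0.0254), a call lost without either Col-0 replicate (0.0779 and 0.105).

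Of the 3 neighbours that fell, AT1G52120 was described with its row of lectin genes. LINC1, a nuclear lamina protein beside HAC2, went from 141 and 203 CPM in Col-0 to 108 and 129 CPM in dal-2 (log2 fold change -1.01 ± 0.24 SE, edgeR adjusted p = 0.0132), and was not called without Col-0 replicate 2 (0.104). AT3G28900, a ribosomal protein gene beside RLP43, had nearly the same unscaled level in Col-0 (74.4 CPM) and dal-2 (74.7 CPM) and was lower only after library scaling (log2 fold change -0.47 ± 0.11 SE, edgeR adjusted p = 0.0146). That call was lost with upper quartile scaling (0.0544) and without either Col-0 replicate (0.0794 and 0.116). Without Col-0 replicate 2, 4 neighbours rose and 1 fell. The neighbours of HDG4 and AT5G61720, beside ABCA9, had no count in any library.

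**Figure D4:**
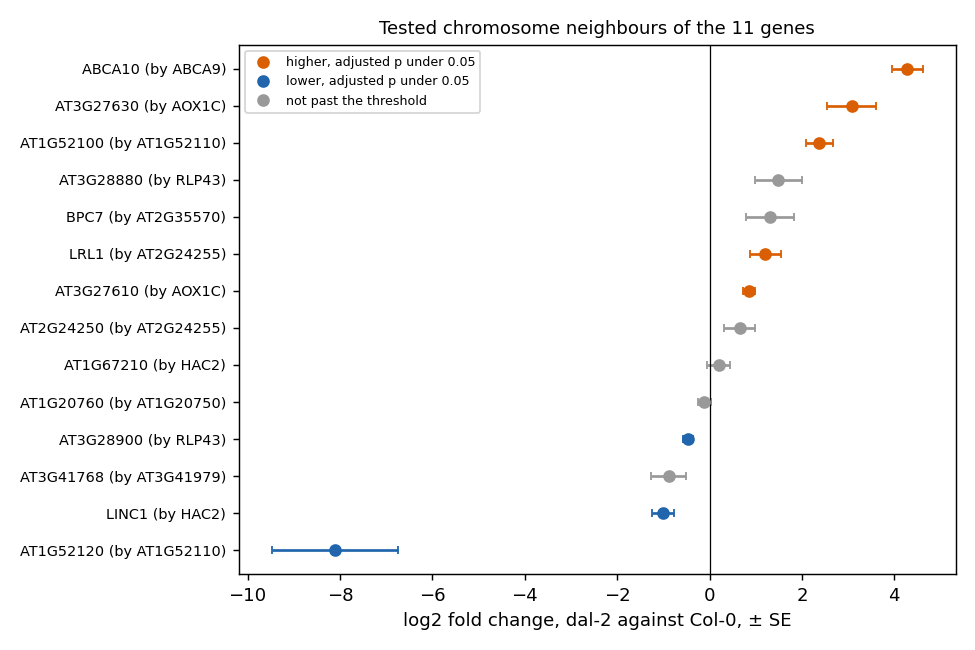
Log2 fold change in dal-2 against Col-0, with its standard error, for the 14 tested direct neighbours of the 11 genes, each with the member it lies beside. Orange marks the 5 that rose, blue the 3 that fell and grey the 6 not past the threshold. ABCA10 stands highest at 4.28. AT1G52120 had no count in dal-2, so its fitted value depends on the prior count.

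**Figure D5:**
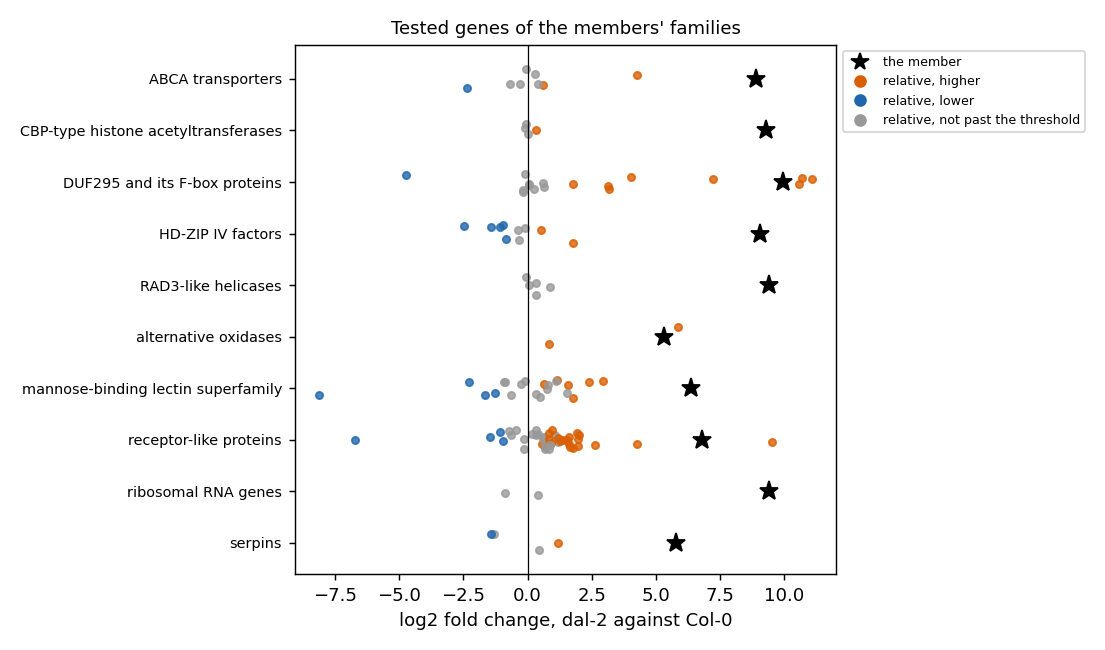
Log2 fold change in dal-2 against Col-0 for the tested genes of each member's family, by annotation. Stars are the members, which were chosen on these values, and dots are their relatives, with colours as in the legend. Fitted values of genes with no count in either group depend on the prior count. In the receptor-like proteins 20 of 42 relatives rose, and in the HD-ZIP IV factors 5 of 10 fell.

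Markers of other organs were read beside the members. The flower list summed to 68.7 and 56.2 CPM in dal-2 and 50.3 to 75.5 CPM in the 6 libraries of Col-0 and of uninduced DIF-OX2. In induced DIF-OX2 it summed to 28.6 and 24.6 CPM. Most of the sum in Col-0 came from SOC1 and SEP4, so it says little about the other flower genes. SOC1 had 41.0 and 50.8 CPM in Col-0 and 35.9 and 29.1 CPM in dal-2, and both genes were called lower in dal-2. In dal-2, 4 of 7 tested genes were higher and 2 lower. Of the 4, PI and AG passed the filter on low counts only through dal-2 and could be called only higher. SEP3 rose from 0.307 and 0.287 CPM in Col-0 to 20.9 and 9.40 CPM (log2 fold change 5.14 ± 0.66 SE, edgeR adjusted p = 0.00106), and SEP4 fell from 19.7 and 20.0 CPM to 0.177 and 2.08 CPM (log2 fold change -4.47 ± 0.56 SE, edgeR adjusted p = 0.000986). LFY, which marks flower meristems, had 0.353 and 0.201 CPM in dal-2 and was too low to test. Without either Col-0 replicate 1 flower gene was called higher and 2 lower. Of 14 anther and pollen markers 7 had no count in dal-2, and 1 of 2 tested, LAP6, rose (log2 fold change 0.88, edgeR adjusted p = 0.0103), which was lost without Col-0 replicate 2. Of 12 root markers 0 rose and 6 fell, with summed levels of 104 and 69.4 CPM in dal-2 and 102 to 125 CPM in Col-0 with or without Dex. Without Col-0 replicate 1 the count of falls was 1. The part of any of these organs in the members' levels was not tested.

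The limits of the selection decide which genes count as members. Just inside the lower limit were AT5G33395, AT1G20750 and HDG4, with 3.16, 4.57 and 4.83 CPM in the lower dal-2 library. Just outside it were AT3G19550 with 2.92, AT3G12410 with 2.75 and GLYI7 with 2.74 CPM in the lower library, although GLYI7 had 38.4 CPM in the other. Just inside the upper limit were AOX1C, HDG4 and RLP43, whose highest mean outside dal-2 was 0.419, 0.374 and 0.34 CPM. Just outside were AT4G05370 and AT5G41765, both at 0.509 CPM, and AT5G53230 at 0.612 CPM.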

How the data were processed

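RNA from whole seedlings was sequenced in 10 libraries. The authors deposited raw read counts per gene. Reads were trimmed with Trimmomatic, aligned to TAIR10 with TopHat2 and counted with HTSeq, per the submitters' processing notes, which give no versions. The strand setting and the treatment of reads with several alignments are not given in the sources used here. Levels are counts over the library total. Sequences, positions and gene names came from RefSeq TAIR10.1, which matched 32835 of 33602 genes.

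Tests used edgeR 4.0.16 in R 4.3.3 on the counts: filterByExpr (20681 genes kept), TMM scaling, 1 coefficient per group over all 10 libraries, quasi-likelihood F tests and Benjamini-Hochberg adjustment over all tested genes, called at an adjusted p of 0.05. Fold changes are on the TMM scale, levels are not. Residual degrees of freedom were 5. The steps were tested on simulated data. The members, the gene lists and families and the rule for named genes were chosen with earlier results of these data known. Every member may be named, with its neighbours and nearest relative by BLAST, the genes nearest each limit, and the first and most changed genes of each list.

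Alternatives were DESeq2 size factors, upper quartile scaling, no filter, only the libraries compared, the DESeq2 1.42.0 Wald test, other limits, each library left out and the replicate number as a block.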

Additional observations from a re-analysis of the deposited data

How the results depend on the processing

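The number of genes that met the selection was 6 with a limit of 0.25 CPM outside dal-2, 27 with 1 CPM and 20 with a dal-2 minimum of 2 CPM. Leaving out each library in turn gave 11 to 40 genes, 24 without dal-2 replicate 1 and 40 without dal-2 replicate 2. Leaving out a dal-2 library only removes a condition, so all 11 had to be kept, and nothing is read from that. In dal-2 against Col-0, calls numbered 2258 with only the 4 libraries compared, and 3891 to 8352 with each library left out. In DIF-OX2 on Dex against Col-0 on Dex they numbered 6892 with only the 4 libraries, and 1343 to 7102 with each left out. Called neighbours numbered 4 with only the 4 libraries, where 0 fell, and 5 to 10 with each library left out. The causes were not tested, beyond the fewer samples. These fits take the single library that remains in a group to vary as the rest do.

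Replicate numbers occur in every group, but the labels tie them to nothing. Deviations of same-numbered libraries correlated between -0.10 and 0.46 over the 10 pairs of groups, at 0.12 between Col-0 and dal-2, 0.10 between the groups on Dex and 0.46 between Col-0 and DIF-OX2 without Dex. With the replicate block the calls were 7479 and 5008. Among the chromosome neighbours and nearest relatives of members, no called result in dal-2 reversed its direction in the settings run. The genes of the families and lists were followed mainly as counts of rises and falls. Outside dal-2 the members have so few counts, as the selection requires, that their levels there rest on counts of 0 to 6 per library.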

Other observations

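Further gene lists were read in dal-2, again with levels in CPM. Of 8 tested senescence genes 4 rose and 2 fell (edgeR quasi-likelihood test). SAG13, an early senescence marker, had no count in Col-0 and 19.9 and 42.6 CPM in dal-2, at least 221-fold higher (edgeR adjusted p = 0.00042), and BCB rose by 4.89 ± 0.46 on the log2 scale (edgeR adjusted p = 0.000316). Both also rose in induced DIF-OX2 against Col-0 on Dex. SAG13 had 49.3 and 49.6 CPM there (log2 fold change 8.46 ± 0.65 SE, edgeR adjusted p = 0.000393), and BCB rose by 2.63 ± 0.43 (edgeR adjusted p = 0.00439). In dal-2, SAG29 fell from 31.2 and 20.5 CPM in Col-0 to 0.619 and 3.42 CPM (edgeR adjusted p = 0.00198). The numbers were 4 rises and 3 falls without dal-2 replicate 2 and 3 rises and 1 fall without either Col-0 replicate.

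Of 9 tested small heat shock protein genes 2 rose, HSP18.2 and HSP23.5 (edgeR adjusted p = 0.023 and 0.0201), and the number was 9 of 10 without dal-2 replicate 1 and 0 without Col-0 replicate 1. In induced DIF-OX2 the list summed to 59.7 and 60.5 CPM, against 16.6 and 15.5 CPM in Col-0 on Dex, and 2 of the 9 were called higher. Without Dex, Col-0 had 11.9 and 18.7 CPM. The summed level was 36.8 CPM in dal-2 replicate 1 and 130 in replicate 2, the reverse of the order seen in 10 of the 11 genes on in dal-2. Of 15 tested genes of the abscisic acid and dehydration response 2 rose and 2 fell.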
